A study of Mus musculus with 8 samples.

Results

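Many germline genes are known to be silenced in somatic tissues with DNA methylation of their promoters. The genes described here are 32 mouse germline genes, and the values below do not show such methylation at each of them. They were chosen by name, with earlier results of these data known. All 32 were found among the 21631 protein-coding genes of chromosomes 1 to 19 and X in a RefSeq gene table. Whole-genome bisulfite sequencing, in which unmethylated cytosines are read as thymines, gave the methylation of quiescent muscle stem cells sorted from limb muscle as CD45-, CD31-, Sca1- and VCAM+. The old group held 4 male C57BL/6 mice of 22 months and the young group 4 male C57BL/6 mice of 4 months, with 1 animal per library and no treatment or transgene in either group. The deposited table holds 1 methylation level for each age at 33108039 CpG cytosine positions, without read counts or levels of single animals. Each level is therefore a group value without an SD, at an unknown depth per position. Per the labels' protocols the libraries had between 115000000 and 200000000 reads.

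In germ cells these genes run linked programmes. The piRNA pathway uses small RNAs and Piwi proteins to silence transposons. The synaptonemal complex and the meiotic cohesins hold homologous chromosomes and sister chromatids together in meiosis, and recombination enzymes cut and repair the paired DNA. Most mammalian promoters that are dense in CpGs stay free of methylation, and germline genes are a known exception: many of their CpG-dense promoters are methylated around implantation and kept so in somatic cells. The complexes of E2F6 and of MGA with PCGF6, which bind a TCCCGC core and the E-box CACGTG, take part in silencing them. RNA was not measured here, so the data show methylation and not silencing.

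Promoter sequences of 8 genes carry the contrast that the values below turn on. Each line gives the 250 bases before the RefSeq start (build GRCm38.p6), 5′ to 3′ on the strand of the gene, with CpG dinucleotides in capitals. The first set shows promoters that are rich in CpGs and were methylated in both ages. Those of Mael (chr1:166238745-166238994, minus strand), Ddx4 (chr13:112652311-112652560, minus strand), Sycp1 (chr3:102936101-102936350, minus strand) and Slc25a31 (chr3:40708621-40708870, plus strand) hold the E-box, caCGtg in this spelling. Dazl (chr17:50293621-50293870, minus strand) holds neither motif in its RefSeq promoter, which runs on to 50 bases after the start, and had the highest level of the 5.
Mael: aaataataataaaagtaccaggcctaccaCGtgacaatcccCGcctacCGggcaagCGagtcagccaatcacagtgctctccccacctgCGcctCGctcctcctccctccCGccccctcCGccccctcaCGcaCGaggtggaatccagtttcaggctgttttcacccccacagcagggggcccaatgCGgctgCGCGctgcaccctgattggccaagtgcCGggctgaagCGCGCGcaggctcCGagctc
Ddx4: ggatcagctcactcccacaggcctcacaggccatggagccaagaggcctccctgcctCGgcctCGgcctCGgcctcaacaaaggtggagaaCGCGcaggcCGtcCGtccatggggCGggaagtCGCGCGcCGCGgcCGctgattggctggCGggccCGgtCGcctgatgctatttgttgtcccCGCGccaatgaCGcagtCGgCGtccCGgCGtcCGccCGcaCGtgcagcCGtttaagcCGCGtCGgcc
Sycp1: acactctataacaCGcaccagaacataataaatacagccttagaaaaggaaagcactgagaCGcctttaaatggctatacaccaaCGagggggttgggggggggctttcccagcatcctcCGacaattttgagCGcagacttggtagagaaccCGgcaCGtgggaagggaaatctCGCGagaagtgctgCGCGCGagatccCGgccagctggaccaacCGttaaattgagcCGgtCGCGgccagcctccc
Slc25a31: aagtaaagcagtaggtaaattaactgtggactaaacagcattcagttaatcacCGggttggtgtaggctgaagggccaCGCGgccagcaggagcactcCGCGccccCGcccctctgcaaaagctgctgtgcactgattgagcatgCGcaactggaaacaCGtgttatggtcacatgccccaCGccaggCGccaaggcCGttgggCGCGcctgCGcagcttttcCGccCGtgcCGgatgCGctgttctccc
Dazl: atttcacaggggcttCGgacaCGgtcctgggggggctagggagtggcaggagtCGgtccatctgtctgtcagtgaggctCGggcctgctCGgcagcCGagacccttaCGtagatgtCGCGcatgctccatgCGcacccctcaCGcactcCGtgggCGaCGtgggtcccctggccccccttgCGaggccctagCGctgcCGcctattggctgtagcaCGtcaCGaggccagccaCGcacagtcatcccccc
The second set shows promoters with less methylation, of which Meioc and Smc1b lie within the range of CpG numbers of the first set and Dmc1 lies below it. Meioc (chr11:102665335-102665584, plus strand) stood near the middle of the scale, and Smc1b (chr15:85131958-85132207, minus strand) and Dmc1 (chr15:79605110-79605359, minus strand) were low.
Meioc: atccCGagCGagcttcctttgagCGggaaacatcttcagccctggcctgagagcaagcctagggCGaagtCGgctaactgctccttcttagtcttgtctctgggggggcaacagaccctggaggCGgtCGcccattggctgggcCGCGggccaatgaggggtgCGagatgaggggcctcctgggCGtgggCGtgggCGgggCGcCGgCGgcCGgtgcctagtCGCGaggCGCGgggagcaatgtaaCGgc
Smc1b: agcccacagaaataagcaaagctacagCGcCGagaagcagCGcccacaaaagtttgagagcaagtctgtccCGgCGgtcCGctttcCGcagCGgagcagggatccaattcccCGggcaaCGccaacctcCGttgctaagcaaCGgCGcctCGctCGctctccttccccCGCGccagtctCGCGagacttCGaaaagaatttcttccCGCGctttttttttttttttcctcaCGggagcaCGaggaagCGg
Dmc1: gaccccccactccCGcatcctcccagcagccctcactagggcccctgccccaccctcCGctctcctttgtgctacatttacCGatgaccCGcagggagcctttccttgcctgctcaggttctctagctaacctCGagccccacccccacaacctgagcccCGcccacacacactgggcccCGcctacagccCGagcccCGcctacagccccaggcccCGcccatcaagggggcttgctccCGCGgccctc
These 250 bases hold 18 CpGs in Mael, 31 in Ddx4, 17 in Sycp1, 18 in Slc25a31 and 20 in Dazl, against 22 in Meioc, 25 in Smc1b and 12 in Dmc1. Over them the level was 86.4% in old and 85.8% in young cells in Mael, 77.0% and 75.3% in Ddx4, and 91.6% and 91.7% in Sycp1. Slc25a31 stood at 92.7% in old and 90.9% in young cells, and Dazl at 96.1% and 95.7%. Meioc stood at 51.6% in old and 48.7% in young cells, Smc1b at 14.1% and 14.4%, and Dmc1 at 8.36% and 7.07%. The number of CpGs thus did not separate the methylated from the unmethylated promoters of this set. Smc1b, with 25, was low, while Sycp1 (17), Mael (18) and Dazl (20) were high with fewer and Ddx4 (31) with more.

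The ends of the gene spans were sorted by density and level. A window reached 1000 bp to both sides of each end of a RefSeq span. It was called CpG-dense with at least 40 CpG cytosine positions per kb, both strands counted, and methylated with a mean level over both ages of at least 50%. Of the 32 genes, 19 had a methylated CpG-dense end, 4 had a CpG-dense end under 50%, and 9 had no CpG-dense end. At the denser end of each gene 26 of 32 were at 50% or more, all but Smc1b, Stag3, Spo11, Dmc1, Tex14 and Tex15. Of these 26 genes, 19 had a methylated CpG-dense end. The denser ends of the rest are not CpG-dense, and over all genes such ends averaged 66.3% in old and 65.8% in young cells. A level of 50% or more there does not set the germline genes apart. The share of all genes at 50% or more at the denser end is not given here. Among 14464 CpG-dense ends of all protein-coding genes 7.95% were methylated, against 20 of 24 in the germline genes. With rising density the share over all genes dropped: 27.6% of ends with 40 to 60 positions per kb were methylated, 3.49% with 60 to 80, and 0.469% with 80 or more. The germline genes had 10 of 10, 6 of 8 and 4 of 6 methylated in the same ranges. Levels sorted the ends, and the genes were chosen with earlier results of these data known. These counts therefore describe the genes and no test was made of them. The genes nearest to the density limit were Tuba3b (41.5 positions per kb), Hormad2 (44.0) and Asz1 (47.0) inside it, and Tex101 (38.5), Tdrd9 (36.0) and Stra8 (34.5) outside it. Nearest to the level limit were Meioc (54.4%), Dazl (56.8%) and Hormad2 (67.6%) above it, and Tex14 (38.3%), Smc1b (33.7%) and Tex15 (26.6%) below it.

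**Figure D1:**
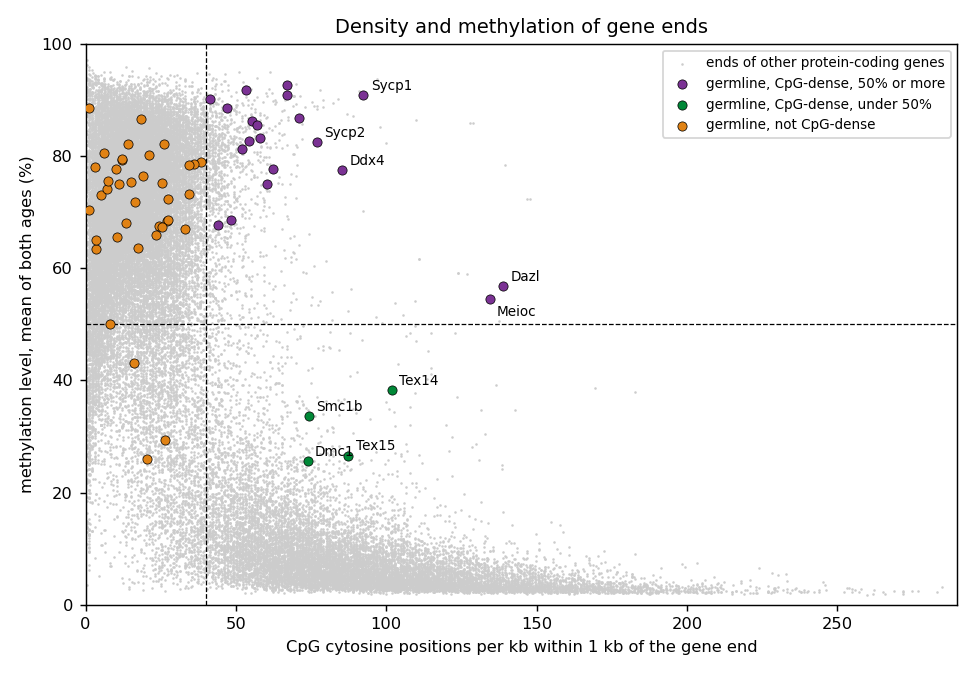
Each point is 1 end of a protein-coding gene, with CpG cytosine positions per kb within 1 kb on the x axis and the mean methylation level of both ages in percent on the y axis; dashed lines mark 40 positions per kb and 50%. The 20 methylated CpG-dense germline ends (purple) lie above the mass of CpG-dense ends, where only 7.95% reach 50%, and 4 more (green) lie below the line.

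Of the 10 piRNA genes 6 had a methylated CpG-dense end, and the other 4 had no CpG-dense end. All 10 were at 50% or more in the mean of both ages at their denser ends. For the 4 without a CpG-dense end such a level does not set them apart from other genes. Asz1, a scaffold of the granules where piRNAs are made, stood at 88.4% in old and 88.6% in young cells at its start (chr6:18108061-18110061). Mael, a piRNA factor named for the fly gene maelstrom, stood at 86.7% and 86.9%, and Ddx4, the germ cell RNA helicase also called Vasa, at 77.7% and 77.2%. Mov10l1, the helicase that feeds piRNA precursors into processing, stood at 77.5% in old and 78.1% in young cells, and at 87.9% and 87.6% within 250 bp of the start. That start lies 198 bp from the upper end of the neighbouring gene Mlc1. Tdrd1, a Tudor scaffold that binds Piwi proteins, stood at 75.1% and 75.0%. Piwil1, a Piwi protein of later spermatogenesis, was the least methylated of these 6 at 68.8% and 68.3%.

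The remaining piRNA genes had sparser ends at similar levels. Over all genes, ends that are not CpG-dense averaged 66.3% in old and 65.8% in young cells. Tdrd9, an RNA helicase with a Tudor domain, stood at 78.9% in old and 78.2% in young cells at its start. Tdrd6, a large Tudor protein of the chromatoid body, stood at 66.5% and 67.6% at its denser end, a mean over unlike stretches. Of the 66 positions there, 21 lie 400 to 600 bp outside the span and share 1 level, 86.7% in old and 89.9% in young cells. At 400 to 600 bp inside the span, 10 positions stood at 25.55% in old and 23.6% in young cells. Piwil2 and Piwil4, the Piwi proteins of fetal male germ cells, stood at 82.9% and 81.5% and at 77.2% and 73.0% at their denser ends. At Piwil4 the 35 positions within 250 bp of the start stood at 80.5% in old and 78.0% in young cells, a narrower gap than over the whole window.

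The 4 regulators of germ cell identity and meiotic entry were all at 50% or more at their denser ends, which are CpG-dense in 2 of them. Dazl had a sharp edge in methylation. Dazl, an RNA-binding protein that licenses germ cells for gametogenesis, had 278 positions within 1 kb of its start, the densest end of all 32 genes, and a window mean of 57.2% in old and 56.3% in young cells. That mean joins opposite states. In the first 200 bp after the start the level was 95.9% in old and 94.9% in young cells, at 200 to 400 bp it was 83.7% and 80.7%, at 400 to 600 bp it was 16.4% and 13.9%, and at 800 to 1000 bp it was 3.29% and 3.27%. No other gene of the table starts or ends within 2000 bp of the start of Dazl. Stra8, the switch from mitosis to meiosis that retinoic acid induces, stood at 73.1% and 73.3% around its span end. Its RefSeq start lies 785 bp inside the span, and around that point the density was 77.5 positions per kb and the level 85.6% in old and 84.9% in young cells.

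Meioc and Dmrtb1 completed this set. Meioc, which keeps germ cells in meiosis, had an intermediate mean level, 55.3% in old and 53.6% in young cells over 269 positions, on a slope. The level was 80.8% in old and 81.4% in young cells at 800 to 1000 bp before the RefSeq start. In the first 200 bp after the start it was 51.98% and 47.9%, and at 800 to 1000 bp after it 42.99% and 43.2%. Single positions of the window ran from 44.2% to 81.6% in old and from 43.4% to 81.8% in young cells. Group values cannot tell whether each cell carries such a mixture or cells differ. Dmrtb1, which coordinates the switch from spermatogonial divisions to meiosis, had sparse span ends, but its RefSeq promoters lie inside the span. Around the promoter nearest to the span's 5′ end the density was 77.5 positions per kb and the level 84.2% in old and 83.1% in young cells.

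**Figure D2:**
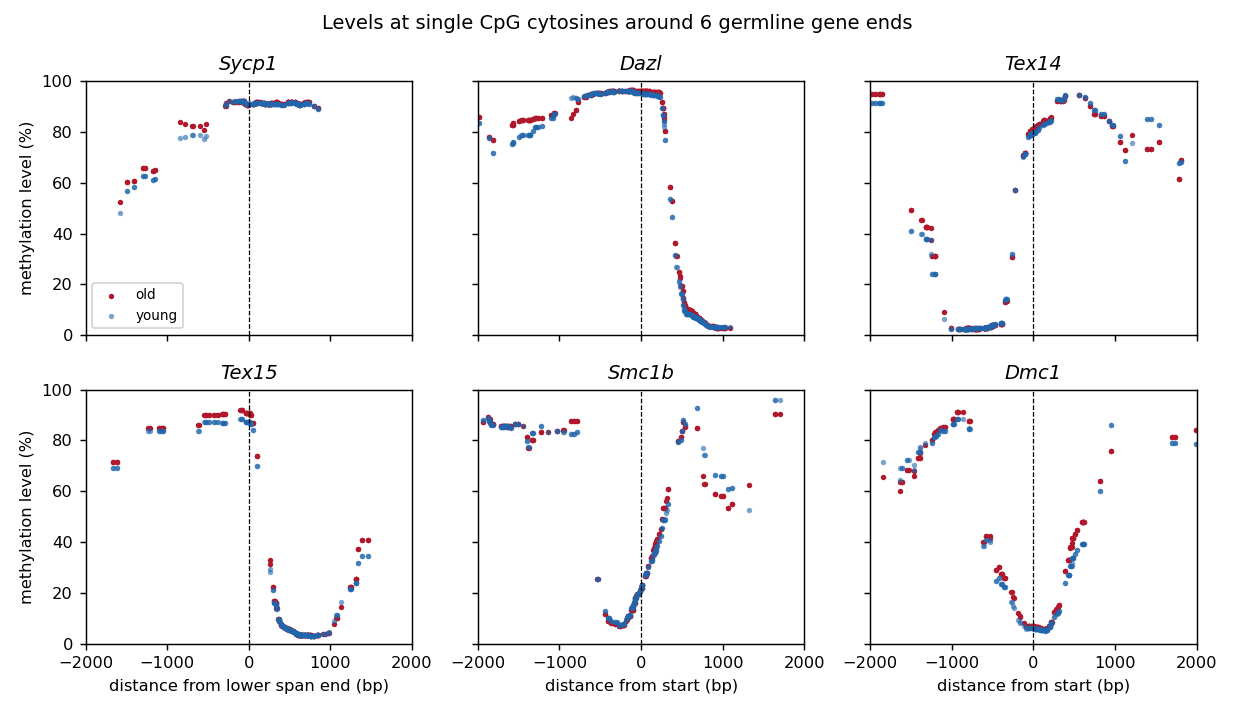
Each point is the group level in percent of 1 CpG cytosine, old in red and young in blue, against its distance in bp from the RefSeq start (for Tex15, for which no start was used, from the lower-coordinate end of its span). Sycp1 stays near 91% across its start, Dazl and Tex15 drop to under 10% inside the gene, Tex14 drops on the side outside the gene, and Smc1b and Dmc1 are low at the start; both ages follow the same curves.

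The chromosome axis genes split into 5 methylated and 2 unmethylated genes. Sycp1, the transverse filament of the synaptonemal complex, stood at 91.0% in old and 90.7% in young cells over 185 positions. Sycp3 and Sycp2, which form the lateral elements of the complex, stood at 83.6% and 82.8% and at 83.3% and 81.6%. Hormad1, a HORMA-domain protein of unpaired axes, stood at 83.6% and 81.9%, and its relative Hormad2 at 68.8% and 66.4%. The meiotic cohesin subunits were low. Smc1b stood at 33.7% in old and 33.6% in young cells at its start, and at 22.7% and 22.3% within 250 bp of it. The start lies 103 bp from the end of the neighbouring gene Ribc2. Stag3 stood at 26.4% and 25.7% at its span end, and its RefSeq promoter, 7995 bp inside the span and holding 30 CpGs, stood at 10.4% and 8.07%. Beyond that start Stag3 was methylated again, at 92.0% in old and 91.2% in young cells at 400 to 600 bp.

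The 2 recombination genes among the 32, Dmc1 and Spo11, had no methylated CpG-dense end, and Spo11 had no CpG-dense end. A set of 2 does not describe recombination genes in general. Dmc1, the meiotic recombinase, stood at 27.0% in old and 24.2% in young cells within 1 kb of its start, and at 7.45% and 6.48% within 250 bp. Spo11, which makes the double-strand breaks of meiosis, stood at 28.6% and 30.1% around its lower-coordinate end, which is not CpG-dense (26.5 positions per kb), and at 13.0% and 14.0% within 250 bp of it. Within 250 bp of the denser end 3 of the 32 genes were under 20%, Dmc1, Spo11 and Stag3, the last at 2.73% in old and 4.14% in young cells. The Stag3 value rests on 11 positions at a span end 543 bp from the upper end of Gal3st4, so it cannot be assigned to Stag3 alone.

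Testis forms of common proteins were methylated in all 4 genes, at 84.6% to 92.8% in old and 86.6% to 92.7% in young cells at CpG-dense ends. Rpl10l, an intronless copy of the X-linked ribosomal protein gene Rpl10, stood at 92.8% in old and 92.7% in young cells at its start and at 92.2% and 91.4% at its other end, and the windows overlap in a span of 1023 bp. Slc25a31, the ADP/ATP carrier of sperm, stood at 91.5% and 90.5%. Tuba3b stood at 90.4% and 90.1%, and Tuba3a, an alpha-tubulin of nearly the same sequence, at 84.6% and 86.6%. The sources used here do not say how reads matching both tubulin genes, or both Rpl10l and Rpl10, were placed, so these levels are uncertain to that extent.

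Among the other germ cell proteins, Tex14 and Tex15 had a methylated stretch next to the span end inside windows of low mean level. Brdt, the testis bromodomain protein, stood at 87.6% in old and 85.0% in young cells, and Tex19.1, which restrains transposons in germ cells, at 82.1% and 80.6%. Tex101, a surface protein of germ cells, lay just under the density limit and stood at 78.4% and 79.5%. Tex14, needed for the bridges between germ cells, had a window mean of 38.4% and 38.2%. Its start lies 59 bp from the upper end of Rad51c, a DNA repair gene. In the first 200 bp after the Tex14 start the level was 83.3% in old and 81.8% in young cells, and at 400 to 600 bp on the other side, over 40 positions, it was 3.50% and 3.66%. Tex15, a factor of piRNA-directed methylation, had a window mean of 27.1% and 26.1%, and 89.2% and 85.9% within 250 bp of its lower-coordinate end. At 600 to 800 bp inside the span it was at 3.45% in old and 3.36% in young cells. With windows of 250 bp, an alternative chosen after the data were seen, both Tex14 and Tex15 count as methylated CpG-dense and 24 genes in all do, at a share of 13.3% over all genes.

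The difference between the ages was small at the methylated CpG-dense ends. The 20 ends averaged 80.9% in old and 80.2% in young cells and differed by 0.70 percentage points in the mean (SD over ends 1.05), with 16 higher and 4 lower in old. The mean difference was 0.29 points with windows of 2000 bp, 0.46 with 500 bp and 0.47 with a limit of 30 positions per kb. All 1150 methylated CpG-dense ends of protein-coding genes averaged 75.2% and 74.5% and differed by 0.68 points (SD over ends 1.55), with 68.0% of them higher in old. The germline ends thus lay within the range of other ends of their kind. Brdt had the largest difference among the 20, at 2.58 points, then Hormad2 at 2.37 points; Tuba3a had the lowest, at -1.90 points. The 4 CpG-dense ends under 50% differed by 0.18 to 2.86 percentage points, all higher in old, with Dmc1 the largest. Of the 13314 such ends of all protein-coding genes 41.6% were higher in old, with a mean difference of -0.04 points. The 2 sets are not alike in level: the 13314 ends averaged 9.2% in old and 9.3% in young cells, and the 4 germline ends 31.6% and 30.5%. The SDs are spreads over gene ends, which share the same animals, and are not replicate errors.

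**Figure D3:**
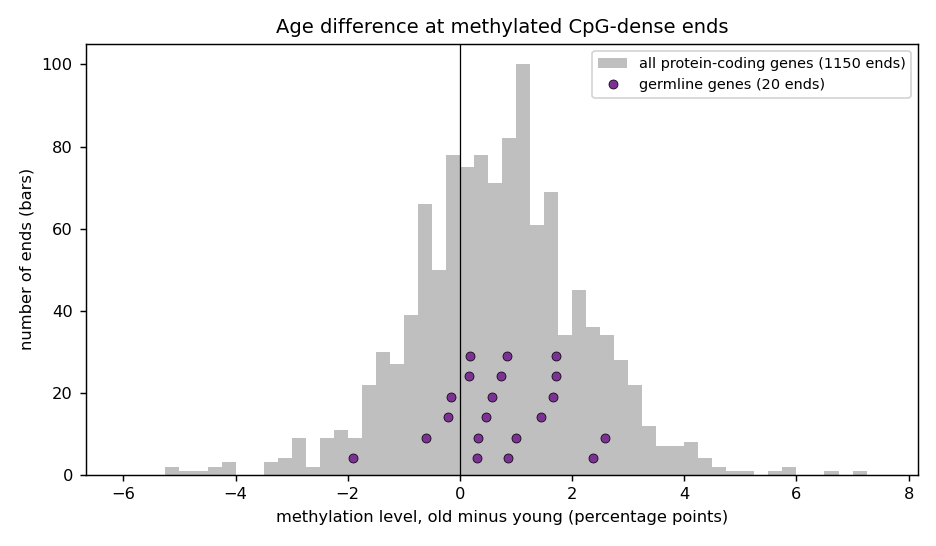
Bars count the 1150 methylated CpG-dense ends of all protein-coding genes by their difference in methylation level, old minus young, in percentage points; purple points are the 20 germline ends, at heights chosen only to keep them apart. The germline ends run from -1.90 to 2.58 points, inside the range of -5.25 to 7.15 points of all such ends.

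No end and no span of these genes passed the test of the ages. Each window took 2 times the median p that its positions have in the authors' deposited table, a bound that holds however the positions depend on each other. Windows of at least 10 positions were adjusted over all protein-coding genes (Benjamini-Hochberg) and called at 0.05. Of the germline ends 58 could be tested and 0 were called, and 0 of them had an unadjusted p under 0.05. Over all genes 0 of 38816 ends were called (0%), with 14 at an unadjusted p under 0.05, and 0 of 20483 spans (0%), so the result does not set the germline genes apart. By the Simes combination, an alternative that a single small p can carry, 2 germline ends were called against 2.01% of all ends tested. These were the lower-coordinate end of Hormad2 (74.5% in old, 76.2% in young cells, adjusted p 1.58e-11) and the upper end of Mov10l1 (72.9% and 70.9%, adjusted p 6.76e-05), each with 1 position past the authors' FDR. At Hormad2 that position was higher in old, at 91.3% against 71.2% in young cells, opposite to the mean of its window. Simes also called 10 of 32 germline spans against 31.4% of all spans. Those 10 spans differed by 0.11 to 1.22 points.

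Ends with few positions differed most. The lower-coordinate end of Sycp1 stood at 77.8% in old and 70.6% in young cells over 14 positions, and that of Piwil2 at 67.6% and 63.5% over 21. The upper end of Brdt stood at 90.7% and 86.4%, with only 2 positions. At the start of Piwil4 the difference was 4.23 points over 51 positions. Lower in old were the upper end of Slc25a31, at 61.6% in old and 79.1% in young cells with 2 positions, and the lower-coordinate end of Smc1b, at 69.5% and 76.7% with 10. The lower-coordinate end of Tuba3a (70.9% and 73.7%) and the upper end of Stag3 (73.9% and 76.1%) followed. None of these ends was called by the median test, and the ends with 2 positions could not be tested. The 39 ends of these genes that are not CpG-dense averaged 70.4% in old and 70.3% in young cells, with 21 higher and 18 lower in old. The 34 of them with at least 10 positions averaged 70.2% in old and 69.6% in young cells, 0.53 points apart. Over all genes 56.9% of the ends that are not CpG-dense were higher in old, with a mean difference of 0.49 points.

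**Figure D4:**
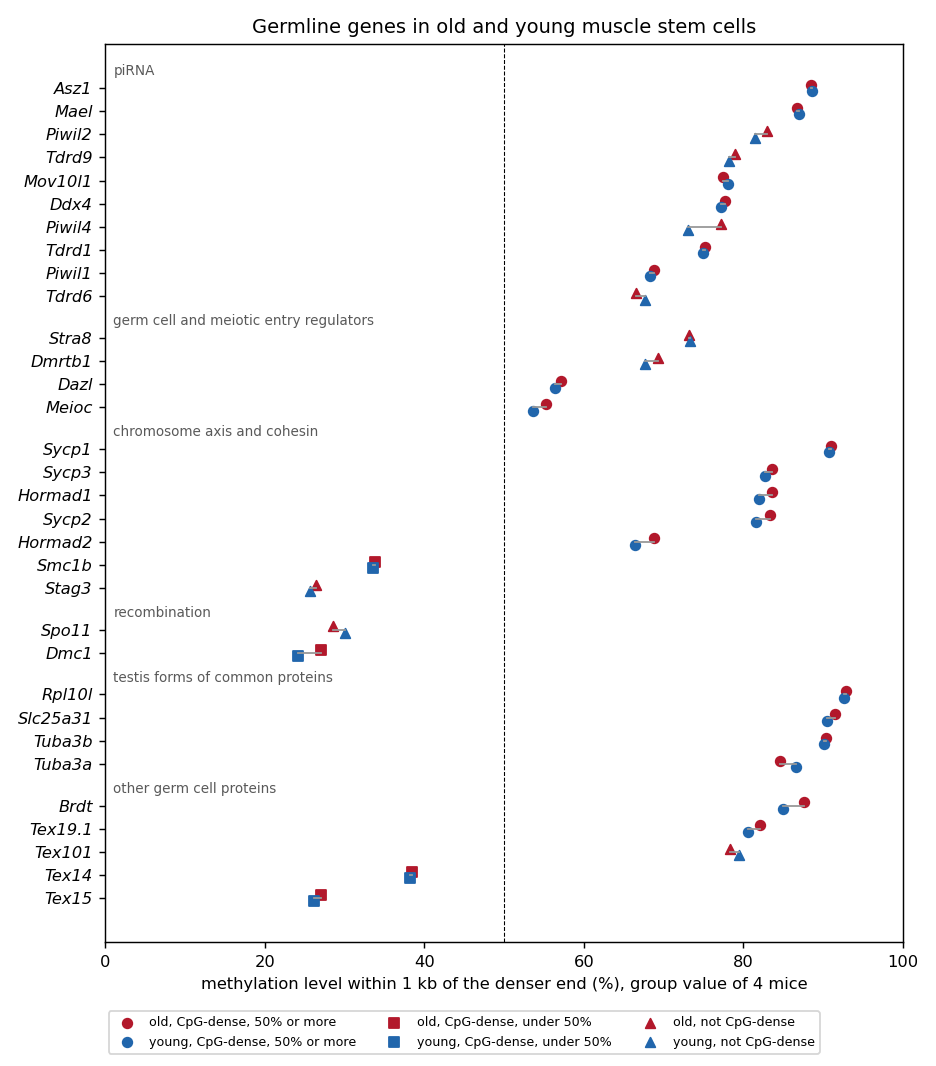
Levels in percent in old (red) and young (blue) cells within 1 kb of the denser end of each of the 32 genes, grouped by role; circles are methylated CpG-dense ends, squares CpG-dense ends under 50%, triangles ends that are not CpG-dense, and the dashed line marks 50%. In 26 genes the mean of both ages is 50% or more, 19 of them with a methylated CpG-dense end, and the 6 below are Smc1b, Stag3, Spo11, Dmc1, Tex14 and Tex15.

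Over whole spans 28 of the 32 genes were higher in old and 4 were lower. The spans averaged 69.5% in old and 68.9% in young cells, 0.61 points apart, and 71.2% of all 21331 protein-coding spans with a position were higher in old, with a mean difference of 0.40 points. Tex19.1 had the largest span difference, at 81.3% in old and 77.5% in young cells over 70 positions, then Meioc at 56.7% and 54.2% and Dmrtb1 at 71.6% and 69.7%. The 4 lower spans were Tuba3a (75.0% and 76.3%), Dmc1 (60.9% and 61.9%), Spo11 (68.4% and 68.8%) and Mael (76.1% and 76.4%). None of these spans was called.

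Single positions that passed the authors' test lay away from the methylated CpG-dense ends. In the spans and the 1 kb around them, the FDR of the authors' deposited table was under 0.05 at 38 of 22931 positions, which is 0.166%, against 0.236% over all positions. Of these 26 were higher and 12 lower in old, where over all positions 0.132% were called higher and 0.105% lower. The 38 lay in 12 genes: Hormad2 (7), Hormad1 (5), Tex14 (5), Ddx4 (4), Smc1b (4), Sycp2 (3), Sycp1 (2), Tex15 (2), Piwil2 (2), Mov10l1 (2), Dmrtb1 (1) and Asz1 (1). Of the 2736 positions counted in the windows of the methylated CpG-dense ends 0 were called, against 0.0103% for such ends of all genes and 0.141% for ends that are not CpG-dense. The smallest p there was 0.000613, at Tuba3a, in the authors' deposited table. At a background of 0.0103% a count of 0 among 2736 is no result about the germline genes.

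The called positions were isolated by their p-values, but not always by their levels. Within 400 bp centred on a called position a median of 2.5 positions were listed, the called one included. Of the 35 with a listed cytosine 1 bp away, 2 had a partner that passed too, and these were partners of each other. They lie in Hormad1 at 95582954 and 95582955 on chromosome 3, at 34.5% in old and 84.3% in young cells (FDR 0.0141 and 0.00115 in the authors' deposited table). The partners of the called positions had a median p of 0.0765 in the authors' deposited table. In Ddx4, 2 positions 1190 and 1213 bp after the RefSeq start stood at 94.99% in old and 76.2% in young cells (FDR 3.81e-05 each, from the authors' deposited table). Their partners, 1189 and 1212 bp after the start, stood at the same levels and were not called. Just outside the span of Hormad2 the position with the smallest p among these genes, 5.03e-16 in the authors' deposited table, stood at 91.3% in old and 71.2% in young cells. In Smc1b a position at 85069720 on chromosome 15 stood at 20.01% in old and 53.9% in young cells. Of the 38 positions 33 had the most common dispersion value of the table in at least 1 age, and without such positions 5 calls were left. The part of these dispersion values in the calls was not tested.

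The dispersion of the levels, the authors' phi, differed little between the ages. The median over the 63 germline ends with a position was 0.0434 in old and 0.0438 in young cells, which are also the most common values of the whole table, held by 17.2% and 18.9% of positions. The highest window medians in old were those of the starts of Tdrd9 (0.0470 in old, 0.0439 in young), Smc1b (0.0468 and 0.0463) and Tex14 (0.0455 and 0.0456). The lowest were those of the upper end of Brdt (0.0393 and 0.0400, with 2 positions) and, at 0.0419 in old, of both ends of Rpl10l and of the lower-coordinate end of Dmc1. The sources used here do not define phi.

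The RefSeq promoter table held 28 of the 32 genes and gave a view that used neither span ends nor windows of 1 kb. Over 250 bases before to 50 after the start nearest to the span's 5′ end, the median number of CpGs was 18.5 in the germline promoters and 14 in 17274 protein-coding promoters, and the ratio of observed to expected CpGs was 0.68 and 0.59. A median level of 84.5% in old and 83.1% in young cells in the germline promoters stood against 3.43% and 3.53% in all. Of the 21 germline promoters with at least 15 CpGs, 17 were at 50% or more in the mean of both ages. Among all 8265 promoters with at least 15 CpGs and a listed position, 88 were, which is 1.06%. The 17 germline promoters were 19.3% of those 88. As the genes were chosen with earlier results of these data known, these shares are a description and were not tested. The germline promoters under 50% were those of Smc1b, Stag3, Dmc1 and Meioc, with Meioc at 51.4% in old and 48.3% in young cells.

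E-boxes and E2F cores were counted in the germline promoters and in all promoters. The E-box CACGTG, which reads the same on both strands, was present in 12 of 28 (42.9%), against 8.01% of all protein-coding promoters and 11.6% of those with at least 15 CpGs. The core TCCCGC, searched on both strands, was present in 15 of 28 (53.6%), against 26.1% and 45.4%. Of the 21 germline promoters with at least 15 CpGs, 52.4% held the E-box and 61.9% the core, a share of the core that is nearer to its background than that of the E-box. Neither motif contains the other. Among promoters with at least 15 CpGs, 33.3% of the germline ones held both, against 5.19% of all and 10.2% of the 88 at 50% or more. Without that limit both were present in 7 germline promoters, those of Mael, Ddx4, Sycp1, Sycp3, Hormad1, Slc25a31 and Stag3, or 25% against 2.78% of all. Of these 7, 6 were at 50% or more, beside 24 of all 28 (85.7%). The core was present in all 4 germline promoters under 50% and in 11 of the 24 at 50% or more (45.8%). The CpG inside the E-box was listed at all 15 E-boxes of methylated germline promoters and stood between 62.6% and 92.7% in old and between 63.9% and 92.0% in young cells. In Stag3 it stood at 8.92% in old and 6.81% in young cells. In Dmc1 the core 13 bp before the start stood at 6.92% in old and 6.12% in young cells and the core 240 bp before it at 17.9% and 14.1%. In Smc1b the core 47 bp before the start stood at 19.6% and 19.5%. A match of letters is a description and does not show binding, and no test of these shares was made.

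Other germline genes came from a list of 62 that holds none of the 32. Of their 46 CpG-dense ends 22 were methylated (47.8%), in 21 genes, against 20 of 24 in the 32 genes and 7.95% over all; the difference between both lists was not tested. These 22 ends averaged 79.5% in old and 79.0% in young cells, with a median difference of 0.51 points, 16 higher and 6 lower in old. The widest differences were those of Msh4, a meiotic mismatch repair gene (87.1% in old, 84.2% in young), Dnd1, an RNA-binding protein of germ cell survival (62.8% and 60.4%), and Sohlh1, a transcription factor of spermatogonia and oocytes (65.4% and 63.6%). In the other direction they were Iho1, a partner of Hormad1 (60.03% and 62.9%), Topaz1 (65.6% and 67.7%) and Rnf17, a Tudor protein (74.2% and 75.6%). Among those with an unmethylated CpG-dense end were Prdm9, which marks recombination sites, at 9.97% in old and 10.5% in young cells, and Rec114 at 2.84% and 2.92%. Of 116 ends tested 0 were called by the median test.

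Most silencing factors and markers of the sorted cells had an unmethylated end. Such an end is common: 12462 of 21386 protein-coding genes with a position at an end had a CpG-dense end under 50%. Those ends averaged 9.22% in old and 9.26% in young cells. The share of all genes with their less methylated end under 20% is not given here. The counts below therefore do not set these lists apart. They use the less methylated of both ends, whereas the count of germline genes at 50% or more used the denser end. Of 20 silencing factors 18 had their less methylated end under 20%, among them E2f6 (10.1% in old, 10.05% in young), Mga (2.76% and 2.90%) and Pcgf6 (7.91% and 7.71%). The exceptions were Dnmt3a (63.1% and 65.0%) and Dnmt1 (72.8% and 73.4%), neither of which has a CpG-dense span end (up to 21.5 and 39.5 positions per kb). Both values are for the span end away from the start. Promoters inside these spans are not given here, so the values do not describe the promoters of these 2 genes. Of 10 muscle stem cell genes 9 were under 20%, Pax7 at 4.19% and 3.88%. Of 6 genes of other cells of muscle only Pdgfra was, while Ptprc, the gene of CD45, stood at 68.6% and 67.1%, Pecam1, the gene of CD31, at 72.9% and 72.5%, and Ly6a, the gene of Sca1, at 51.7% and 46.4%. These 3 ends are sparse, with 11.0, 22.0 and 9.5 positions per kb. A CpG-dense end was present in 1 of the 6 genes, against 7 of the 10 muscle stem cell genes. Ends that are not CpG-dense averaged 66.3% in old and 65.8% in young cells over all genes. The part of density in this contrast was not tested. Of these 36 genes 0 ends were called.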

How the data were processed

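Whole-genome bisulfite sequencing libraries came from 4 old and 4 young mice, with ages taken from the labels. The submitters' processing notes name the builds mm10 and GRCm38 and the tools Bismark, Trim Galore and edgeR; the sources used here give neither versions nor roles. The deposited table gives, per the file headers, a level (mu, a fraction) and a dispersion (phi) for each age, and the authors' p-value and FDR (also a p-value by unit) for each position. Runs of adjacent positions share 1 level, so the levels appear smoothed along the chromosome; adjacent values are then not independent and narrow steps are flattened. Levels were converted to percent and averaged with equal weight of positions.

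Deposited positions count from 0: after adding 1, 100% of 782295 positions in RefSeq promoters fell on a CpG, against 55.3% as deposited. All coordinates are printed after adding 1. Gene spans and promoter sequences came from RefSeq tables of GRCm38.p6, a patch release of the assembly that mm10 names. The tests per animal, leaving out animals and the replicate block could not be run on group values. A window's p was 2 times the median of the authors' p (Simes as the alternative), with Benjamini-Hochberg adjustment over all windows of at least 10 positions. The standard error of the levels is not known, so the power is not known, and 0 calls do not show equal levels. A p that bounds the window needs most of its positions to shift.

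Members and lists were chosen with earlier results of these data known. By rule, each gene with a methylated CpG-dense end was named with values, with those 3 nearest to each limit, the 4 largest differences in each direction, the 3 highest and 3 lowest phi medians, and genes with a called position; other genes and sites were named after their values were seen. Computation used Python 3.11.15, numpy 2.4.6 and pandas 2.3.3.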

Additional observations from a re-analysis of the deposited data

How the results depend on the processing

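The count of 19 genes with a methylated CpG-dense end was within 1.5 times of itself with 30 positions per kb, a level of 70%, windows of 500 bp, and, both added after the data were seen, 250 bp and windows around RefSeq starts. It was 10 with 60 positions per kb, all 10 among the 19, and 9 with windows of 2000 bp, of which 8 were among the 19. The share of methylated ends among CpG-dense ends of all genes was 19.9% with 30 positions per kb, 1.41% with 60, 5.56% at a level of 70%, 11.1% with 500 bp, 6.15% with 2000 bp, 13.3% with 250 bp and 2.65% around RefSeq starts. The mean differences between the ages kept their sign in every alternative run; at methylated CpG-dense ends they ranged from 0.29 points with 2000 bp to 0.86 points with 250 bp. Simes in place of 2 times the median called 2 ends and 10 spans in place of 0, since a single small p suffices. Other windows and minimums of 5 and 20 positions left 0 ends called. Without positions at the most common dispersion values 5 of 38 called positions were left; the cause was not tested. No paired analysis was possible because the deposited columns hold 1 value per age and none per animal, and animals could not be left out for the same reason. Depth per position is unknown, so no level has a counting error.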

Other observations

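Among the 88 protein-coding promoters with at least 15 CpGs and a level of 50% or more, 61 belonged to neither germline list, and those named below were picked with their values in view. Several are known from the testis. Hsf5, a heat shock factor of spermatocytes, had 34 CpGs and stood at 91.2% in old and 91.7% in young cells. Stk31, a Tudor-domain kinase of germ cells, had 29 CpGs and stood at 84.4% and 86.1%. Btbd18, a regulator of piRNA clusters, stood at 91.5% and 90.8%, Adad2 at 82.8% and 81.5%, and Gpat2, a piRNA factor of mitochondria, at 70.1% and 71.2%. Henmt1, which methylates the ends of piRNAs, stood at 51.4% and 53.7% over 62 positions.

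The set also held promoters of genes that are not known as germline genes. Gnas, an imprinted locus, stood at 49.4% in old and 55.1% in young cells over 19 positions, and Zdbf2, also imprinted, at 95.6% and 96.0%. Th, the enzyme that starts catecholamine synthesis, stood at 58.7% and 53.6%, Mtnr1b, a melatonin receptor, at 53.9% and 47.0%, and Cc2d2b at 80.01% and 73.8%. These values are group means without an error, and 54 of the 88 promoters were higher in old, 34 lower.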
